A study of Homo sapiens with 18 samples.

Results

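Untreated SCC25 cells were compared with untreated SCC6 cells to describe how the chromatin of the lines differed before any cetuximab was given. SCC25 and SCC6 (UM-SCC-6) are established cell lines of human head and neck squamous cell carcinoma (HNSCC). The study treated them, together with the HNSCC line SCC1, daily for 5 days with cetuximab at 100 nM, an antibody against EGFR, or with PBS as the untreated control, and profiled chromatin accessibility by ATAC-seq. All libraries used for the comparison received PBS, with 3 replicates per line, in the same medium with serum. The comparison took every row of the deposited region table, left out the 25% of regions with the lowest mean over the 6 libraries, and tested 86315 of 115087 regions. Each group is 1 cell line, so a difference describes these lines and not kinds of HNSCC. Nothing in the labels says that replicates came from separate cultures, so the p-values measure the spread between these libraries only.

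ATAC-seq uses the Tn5 transposase, which inserts sequencing adapters where DNA is not wrapped around nucleosomes, so the signal at a region reports how open it is and how many copies of it the cell holds. Squamous epithelium is kept by transcription factors such as TP63, SOX2 and TFAP2A, which open enhancers of basal keratins (KRT5, KRT14) and of desmosomal genes. Promoters of active genes are usually open in all cell types, whereas distal enhancers, often marked by AP-1, TEAD or p53-family motifs, differ most between cell types. HNSCC genomes carry gains of 11q13 (CCND1) or 11q22 (YAP1, BIRC2) and losses of 9p21 (CDKN2A) among their recurrent copy-number changes.

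The libraries held 5509462 to 13408698 reads in regions in SCC25 and 4098164 to 7260488 in SCC6, and the median region had 17 to 65 reads. The deposited value is a scaled signal in which each library's reads are multiplied by 1 factor and a region without reads is set to 1 read, called the floor below. In each library, 11.1% to 20.9% of regions lay at the floor. Log2 values of replicate libraries of a line correlated over regions with r between 0.926 and 0.971. Differences are given as log2 of SCC25 minus SCC6, on log2(signal + 1), with the standard error (SE) of the limma fit and Benjamini-Hochberg adjusted p-values. A single value of 3 against 3 libraries cannot reach a p below 0.1 in an exact permutation test, so the calls rest on the spread that limma pools over all regions.

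The regions that carry the main differences are shown first, as 200 bases at the centre of each, on the plus strand of GRCh37, with letters that match a searched motif in capitals. The motif of AP-1 was spelled TGANTCA. That of the TEAD factors was spelled GGAATG, and that of homeobox factors was spelled TAATTA. The letters AGATAA stood for GATA factors, and the p53 family was searched by its pair of CATG repeats with a spacer. All were searched on both strands, and a match is a description of the letters only. D1, D2, D4 and D5 were named by rule as regions outside promoters with the smallest adjusted p. P1, T1, F1 and F2 were picked after their values were seen. P1 and T1 had the smallest adjusted p among the intron and intergenic regions searched that differed more than 2-fold. P1 was sought among those higher in SCC25 with an AP-1 and a p53 family match. T1 was sought among those higher in SCC6 with a TEAD match. F1 and F2 belong to a class of short regions described below. They were picked for being at the floor in all SCC25 libraries and for a high mean signal in SCC6.

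D1 was an intergenic region of chromosome 1 with its nearest start site that of KIAA0040, 28.9 kb away, and the window shown is chr1:175191268-175191467.
D1: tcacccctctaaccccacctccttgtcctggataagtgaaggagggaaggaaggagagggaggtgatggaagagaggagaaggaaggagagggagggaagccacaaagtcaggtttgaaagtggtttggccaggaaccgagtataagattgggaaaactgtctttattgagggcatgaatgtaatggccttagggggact
D2 was an intergenic region whose nearest start site, PTBP2, was 305.1 kb away (chr1:96881802-96882001).
D2: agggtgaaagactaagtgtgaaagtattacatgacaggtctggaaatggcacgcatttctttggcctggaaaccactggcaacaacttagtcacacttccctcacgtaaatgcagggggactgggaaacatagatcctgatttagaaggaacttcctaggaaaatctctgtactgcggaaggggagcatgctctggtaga
P1 lay in an intron of CADPS (chr3:62704231-62704430) and held an AP-1, a TEAD and a p53 family match.
P1: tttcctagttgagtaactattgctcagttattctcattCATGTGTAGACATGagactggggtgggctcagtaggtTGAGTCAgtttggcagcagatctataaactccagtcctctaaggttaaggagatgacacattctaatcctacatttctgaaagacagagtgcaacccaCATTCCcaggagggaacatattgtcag
D4 lay in a non-coding gene 10.4 kb from the start site of BIRC3 (chr11:102177090-102177289), with 1 AP-1 match.
D4: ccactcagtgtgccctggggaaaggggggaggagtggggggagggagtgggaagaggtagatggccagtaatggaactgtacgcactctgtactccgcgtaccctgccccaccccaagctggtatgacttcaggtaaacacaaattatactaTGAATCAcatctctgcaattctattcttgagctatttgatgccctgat
T1 was intergenic, 58.6 kb from the start site of YAP1 (chr11:102115682-102115881), with 1 TEAD match.
T1: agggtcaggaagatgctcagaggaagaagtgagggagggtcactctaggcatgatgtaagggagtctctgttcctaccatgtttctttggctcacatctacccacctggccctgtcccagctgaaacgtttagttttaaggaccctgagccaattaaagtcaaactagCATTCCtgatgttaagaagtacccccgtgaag
D5 was intergenic, 347.9 kb from the start site of NR5A2 (chr1:199648655-199648854), with 1 GATA match.
D5: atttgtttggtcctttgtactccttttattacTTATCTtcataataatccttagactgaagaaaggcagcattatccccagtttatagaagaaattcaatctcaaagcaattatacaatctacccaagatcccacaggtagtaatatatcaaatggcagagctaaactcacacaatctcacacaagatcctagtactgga
F1 lay in an intron of PLCL1 (chr2:199173831-199174030) and held no match.
F1: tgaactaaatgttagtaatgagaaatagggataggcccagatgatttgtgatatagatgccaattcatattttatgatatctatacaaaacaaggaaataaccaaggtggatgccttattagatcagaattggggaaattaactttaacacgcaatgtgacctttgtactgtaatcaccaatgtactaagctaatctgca
F2 lay in an intron of PCDH7 (chr4:30811858-30812057) and held no match.
F2: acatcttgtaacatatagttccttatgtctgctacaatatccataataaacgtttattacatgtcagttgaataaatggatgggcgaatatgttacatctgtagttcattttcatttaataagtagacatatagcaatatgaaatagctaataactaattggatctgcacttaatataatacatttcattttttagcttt

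The signal at D1 was 906, 917 and 859 in the SCC25 libraries and 74.9, 75.6 and 82.7 in the SCC6 libraries, and at D2 it was 708, 727 and 656 against 10.9, 8.03 and 7.61. P1 had 166, 149.99 and 159 in SCC25 and 6.04, 6.02 and 5.44 in SCC6. All 3 regions were open in SCC25 in every library and far lower in every SCC6 library. The SCC6-high regions D4 and T1 had the opposite pattern at much higher levels. D4 had 3175, 3061 and 3324 in SCC6 against 240.4, 247 and 229 in SCC25, and T1 had 2544, 2355 and 2790 against 59.2, 62.7 and 60.2. Both belong to a stretch of chromosome 11 in which nearly all regions were higher in SCC6, and D4 had a difference of 0.12 once the median of its block of 40 neighbouring regions was taken away, a value called less the block from here on. The other regions named by the same rule were D3 on chromosome 9, with 940.2, 948 and 875 in SCC25 against 121, 116 and 111, and D6 on chromosome 8, with 182, 197.6 and 187 against 1075, 980.2 and 1075. The neighbours took away part of these differences as well. Less the block, log2 went from 3.51 to 1.63 at D1, from 6.16 to 3.91 at D2, from 2.98 to 1.19 at D3 and from -2.46 to -0.75 at D6. D5, F1 and F2 differed from these in SCC25, where they had at most 2 reads per library. At F1 and F2 this, and the high signal in SCC6, follows from how they were picked. D5 had 665, 487 and 623 in SCC6, F1 had 652, 451 and 547, and F2 had 581, 450.3 and 547.

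limma with Benjamini-Hochberg adjustment called 31854 regions (36.9%) higher in SCC25 and 30306 (35.1%) higher in SCC6 at an adjusted p under 0.05. With a difference of more than 2-fold required in the test (limma treat), 18528 (21.5%) were higher in SCC25 and 15537 (18.0%) higher in SCC6. The lines' libraries did not overlap in 75.1% of tested regions. Calls were near even over all regions but not at promoters. Of 14367 regions within 1 kb of a start site of a protein-coding gene, 2788 (19.4%) were higher in SCC25 and 6298 (43.8%) in SCC6, with a median log2 of -0.30 against 0.15 for the 71948 regions outside promoters. This tilt depends on the scaling, because scaling to the reads in regions without a peak moved the median of all regions from 0.00 to 0.63 and that of promoters to 0.33, with 45963 regions then higher in SCC25 and 19192 in SCC6. Differences of genes are therefore best read against the median of all genes. The number of peaks in the deposited lists was 62135 ± 17454 (SD, n = 3) in SCC25 and 54774 ± 10169 (SD, n = 3) in SCC6 (two-sided exact permutation test, p = 0.6, smallest possible 0.1).

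Peaks were often private to a line. Of the tested regions, 12957 overlapped a peak in all 3 SCC25 lists and in no SCC6 list, 8307 the reverse, and 19079 had a peak in all 6. Private regions were mostly distal, with 649 promoter regions among the SCC25-private and 382 among the SCC6-private ones, against 7440 of those shared by all. Of the SCC6-private regions, 5034 belonged to a class of short regions described below, which left 3273 (309 at promoters), whereas 12846 of the SCC25-private regions lay outside it. The line differences were largely present after cetuximab too. In the libraries of cells treated for 5 days, 92.9% of the regions higher in SCC25 and 95.2% of those higher in SCC6 kept their direction, and 97.9% and 99.4% of those past 2-fold did. The difference between lines depended on treatment in 8069 regions (9.35%) by limma's interaction term.

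A class of short regions stood apart, and it was defined after the widths of the called regions had been seen, as the run of widths at each of which over 60% of tested regions were more than 2-fold higher in SCC6. These regions of 198 to 201 bases made up 9867 of the tested regions (11.4%). Of these, 9166 (92.9%) were higher in SCC6 and 344 (3.49%) higher in SCC25. Of the 15537 regions more than 2-fold higher in SCC6, 9019 belonged to the class, as did 206 of the 18528 for SCC25. Below 198 bases the excess tapered off, with 233 of 433 regions of 197 bases and 19 of 168 of 190 bases more than 2-fold higher in SCC6, and above 201 bases it ended, with 16 of 266 of 202 bases. Regions of all other widths had 31510 (41.2%) higher in SCC25 and 21140 (27.7%) higher in SCC6, and past 2-fold 18322 and 6518. The class had a median log2 of -4.17, against 0.21 in the other regions.

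**Figure D1:**
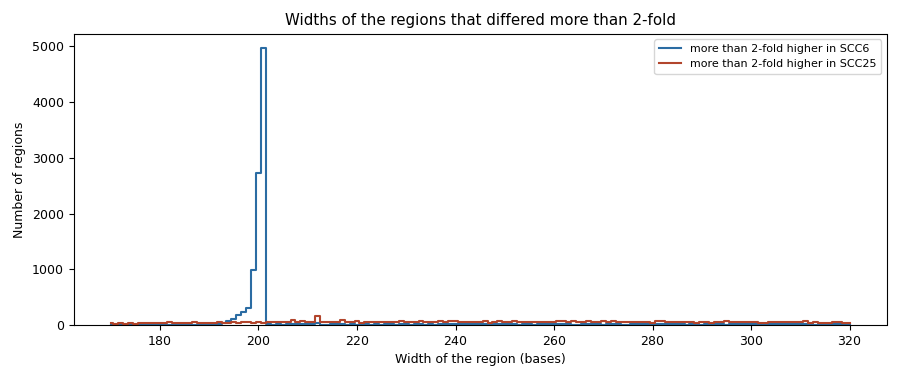
Number of tested regions more than 2-fold higher in SCC6 (blue) or in SCC25 (red) at each region width from 170 to 320 bases, in steps of 1 base. The SCC6 line has a narrow peak at 198 to 201 bases, which holds 9019 of its 15537 regions, and the SCC25 line has none there.

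The class differed from other regions in sequence and place as well. Its median GC content was 33.3% against 48.6%, 1.89% of its regions were at promoters against 18.6%, and its median distance to a start site was 75.8 kb against 27.3 kb. An AP-1 match was present in 9.85% of its 200-base windows against 33.1% of the others, and a homeobox match (TAATTA) in 13.6% against 3.66%. The windows of D5, F1 and F2 above, with 35% GC, 33.5% and 27%, are of this kind. In SCC25, 93.6% of class regions had no peak in any of the 3 lists, against 16.03% of other regions. Its median signal was 35.5 to 38.7 in the SCC6 PBS libraries and 38.0 to 62.6 in the SCC6 cetuximab libraries, but 0.721 to 1.13 in SCC25 PBS, 1.3 to 1.77 in SCC25 cetuximab and 1.12 to 1.3 in the SCC1 PBS libraries. The class held 9.88% to 10.7% of all reads in regions in SCC6 PBS and 0.918% to 0.987% in SCC25 PBS. It was thus a property of all 6 SCC6 libraries, which the design does not separate from anything else that these libraries share. In the deposited peak lists, 14.01% to 15.5% of SCC6 peaks and 1.42% to 1.44% of SCC25 peaks had these widths. What the class is was not tested. Leaving it out of the fit gave 31423 regions higher in SCC25 and 21083 higher in SCC6, and at promoters 2765 and 6153, and 8390 regions then depended on treatment. Among the called regions outside the class, 92.9% of those higher in SCC25 and 93.2% of those higher in SCC6 kept their direction after cetuximab, and 97.9% and 98.6% of those past 2-fold did.

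The distal regions of the lines differed in motif content, and the class decided much of this. Outside promoters and past 2-fold, 17558 regions were higher in SCC25 and 14636 in SCC6, of which 17361 and 5750 were left without the class. The AP-1 match was present in 39.5% of SCC25-high windows, in 14.1% of SCC6-high windows and in 35.0% of all distal windows. Without the class these shares were 39.4%, 24.97% and 38.9%, so the order held while the gap narrowed. The p53 family match, the pair of CATG repeats that TP63 and TP73 can also bind, was in 2.71% of SCC25-high, 0.430% of SCC6-high and 1.28% of all windows, and without the class in 2.70%, 0.348% and 1.39%. The RUNX match (TGTGGT) was in 21.9%, 13.4% and 19.1%, and without the class in 21.9%, 18.2% and 20.3%.

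TEAD factors are the DNA-binding partners of YAP1, and their match changed sides. It was in 16.5% of SCC25-high and 15.7% of SCC6-high windows, against 18.9% of all. Without the class it was in 16.5%, 26.0% and 20.3%, so that SCC6-high windows held it most often. The homeobox match went the other way, from 5.14% in SCC25-high and 10.97% in SCC6-high windows to 5.14% and 5.30%. The GATA match was in 12.1% and 18.9%, and without the class in 12.1% and 15.6%, against 12.2% of all. These shares are descriptions without a test, and windows of unlike GC content hold AT-rich and GC-rich matches at unlike rates.

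Each gene was read out at 1 promoter region, the strongest within 1 kb of a start site. Of 12621 genes with a tested promoter region, 2037 (16.1%) were higher in SCC25 and 6082 (48.2%) in SCC6, and 1255 (9.94%) differed more than 2-fold, 557 towards SCC25 and 698 towards SCC6. The median log2 of all genes was -0.34. Only 75 of these promoter regions had 198 to 201 bases, and 57 of them were called higher in SCC6. Lists of genes are set beside these shares, with no test of a list.

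**Figure D2:**
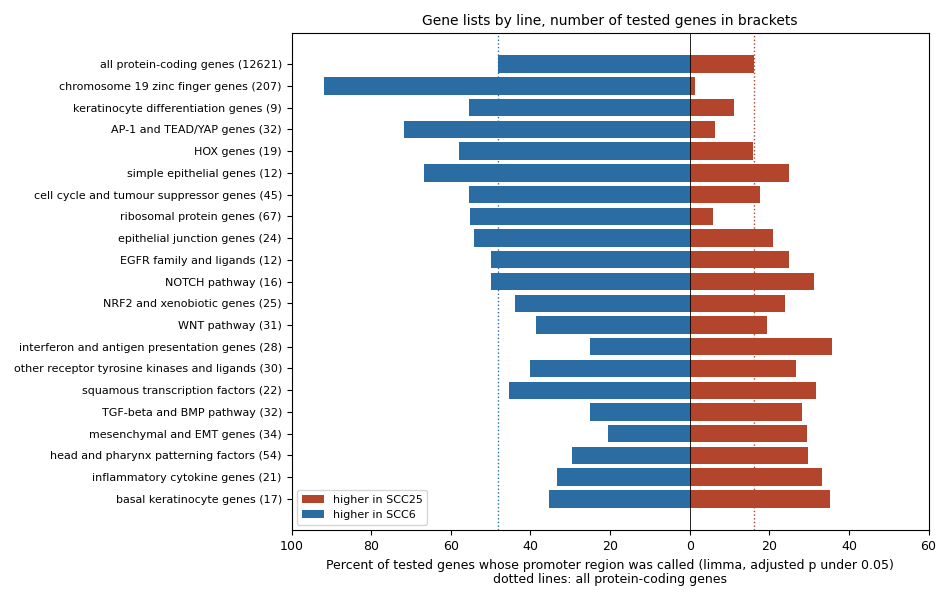
Percent of the tested genes of each list whose promoter region was called higher in SCC25 (red, to the right) or in SCC6 (blue, to the left) by limma, with the number of tested genes in brackets and dotted lines at the shares of all genes (16.1% and 48.2%). Zinc finger genes of chromosome 19 reach furthest to the SCC6 side, with 190 of 207 called.

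Among squamous transcription factors, 7 of 22 were higher in SCC25 and 10 in SCC6, with a median log2 of -0.10. TP63, the master factor of stratified epithelium, had 39.6, 28.1 and 41.6 in SCC25 and 14.5, 24.8 and 16.3 in SCC6 at the start site with the highest signal (log2 0.95 ± 0.30, adjusted p = 0.00981). The lines did not overlap, but the difference was less than 2-fold and lost its call by cyclic loess (0.39, adjusted p = 0.241) and with the GC trend removed (0.62, adjusted p = 0.0721). TP73, its close relative, had 199, 149 and 168 against 6.04, 8.70 and 7.61 (log2 4.36 ± 0.23, adjusted p = 1.95e-09), of which 1.55 remained less its block. OVOL1, a repressor that acts in epidermal differentiation, had 88.2, 75.7 and 72.1 against 32.6, 31.4 and 34.8 (log2 1.23, and 0.78 less its block). SOX2, a pluripotency and squamous factor, had 145, 141 and 171 against 95.4, 90.3 and 89.2 (log2 0.72 ± 0.13), but lay in a block of neighbours that were shifted alike, and less its block the difference was -0.10 (adjusted p = 0.597).

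Other squamous and epithelial factors were higher in SCC6. TFAP2A, an AP-2 factor that the study followed, had 405, 379 and 359 in SCC25 and 695, 589 and 660 in SCC6 (log2 -0.76 ± 0.08, adjusted p = 6.65e-07). It had -0.35 less its block, where the median of all genes was -0.17. It lost its call under scaling to regions without a peak (-0.12, adjusted p = 0.112). TFAP2C had 125, 114 and 109 against 253, 300.4 and 312 (log2 -1.30), of which -0.37 remained less its block. ELF3, an epithelium-specific ETS factor, had 39.6, 24.5 and 22.1 against 126, 132 and 131 (log2 -2.18 ± 0.21, and -2.04 less its block). The squamous regulators therefore did not move one way.

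**Figure D3:**
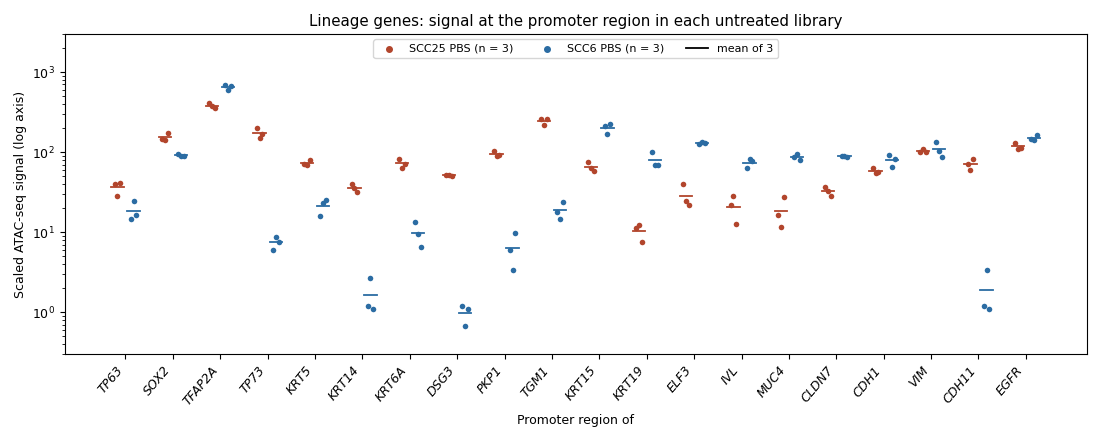
Scaled ATAC-seq signal on a log axis at the promoter region of 20 lineage genes in each untreated library of SCC25 (red) and SCC6 (blue), with a line at the mean of 3. KRT14, DSG3 and CDH11 have 0.669 to 3.35 in SCC6 and 31.4 or more in SCC25, whereas the VIM values of the lines overlap.

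Basal keratinocyte genes were split, with 6 of 17 higher in each line, a median log2 of 0.16 and 4 against 2 past 2-fold. KRT14, the type I keratin of the basal layer, had 39.9, 36.1 and 31.4 in SCC25 and 1.21, 2.68 and 1.09 in SCC6, where 1 library was above the floor (log2 3.83 ± 0.32, adjusted p = 5.29e-08). Its partner KRT5 had 72.0, 69.2 and 78.9 against 15.7, 23.4 and 25 (log2 1.76 ± 0.23), and the wound keratin KRT6A had 82.5, 63.5 and 71.3 against 13.3, 9.37 and 6.53 (log2 2.82 ± 0.29). KRT15, a keratin of basal and progenitor cells, went the other way with 74.6, 64.2 and 58.5 against 209, 168 and 224 (log2 -1.59 ± 0.15).

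Genes of epithelial junctions leaned to SCC6 by count, with 5 of 24 higher in SCC25 and 13 in SCC6 and a median log2 of -0.44, which is near the -0.34 of all genes. Past 2-fold the count was 4 against 2. Desmosomal genes were among those 4. DSG3, the desmoglein of the basal and spinous layers, had 52.0, 51.9 and 50.05 in SCC25 and was at the floor in all 3 SCC6 libraries, so it was at least 17.3-fold higher in SCC25. PKP1, a desmosomal plaque protein, had 104, 90.1 and 91.6 against 6.04, 3.35 and 9.79 (log2 3.8 ± 0.33). The tight-junction gene CLDN7 had 36.6, 32.5 and 28.0 against 90.6, 89.7 and 87.0 (log2 -1.44 ± 0.19), and the apical polarity gene CRB3 had 11.3, 8.65 and 9.33 against 30.2, 40.1 and 41.3 (log2 -1.82 ± 0.31). Less its block on chromosome 19, CRB3 had -0.59 (adjusted p = 0.0497), and its region is also that of SLC25A23. CDH1, the E-cadherin gene, had 64.1, 55.5 and 56.8 against 93.0, 64.9 and 81.6 (log2 -0.42 ± 0.18, adjusted p = 0.046), close to the median of all genes, and its sign turned under scaling to regions without a peak. The call was lost without any 1 of the SCC25 libraries and without SCC6 replicate 1 or 3 (adjusted p from 0.0536 to 0.169).

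Simple epithelial genes had 3 of 12 higher in SCC25 and 8 in SCC6, with a median log2 of -0.62. KRT19, the keratin of simple and ductal epithelium, had 11.3, 12.3 and 7.63 in SCC25 and 101, 68.9 and 69.6 in SCC6 (log2 -2.83 ± 0.28), and the mucin MUC4 had 16.6, 11.5 and 27.1 against 85.8, 95.0 and 79.4 (log2 -2.25 ± 0.28). CDX2, an intestinal factor, was an exception with 38.1, 26.7 and 39.9 against 1.21, 2.01 and 1.09 (log2 3.88 ± 0.30). Keratinocyte differentiation genes had 9 of 36 tested, 1 higher in SCC25 and 5 in SCC6. That 1 was TGM1, which cross-links the cornified envelope, with 259.6, 219 and 258 against 18.1, 14.7 and 23.9 (log2 3.65 ± 0.19). The envelope proteins IVL and SPRR1A were higher in SCC6, IVL with 21.9, 28.1 and 12.7 against 62.8, 81.0 and 78.3 (log2 -1.83) and SPRR1A with 4.90, 7.93 and 0.848 against 31.4, 29.4 and 25 (log2 -2.68 ± 0.49). Differentiation genes thus did not move together.

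Mesenchymal and EMT genes, which the study also followed, had 10 of 34 higher in SCC25, 7 higher in SCC6 and 17 not called, with a median log2 of -0.07. VIM, the vimentin gene, had 101, 110.3 and 100.1 in SCC25 and 134, 102 and 88.1 in SCC6, so the lines overlapped (log2 -0.04 ± 0.16, adjusted p = 0.845), and its sign changed with the scaling. VIM had 0.60 (adjusted p = 0.00345) under scaling to regions without a peak and -0.47 (adjusted p = 0.0263) less its block. CDH11, a mesenchymal cadherin, had 71.2, 60.6 and 83.1 against 1.21, 3.35 and 1.09 (log2 4.73 ± 0.39, and 3.12 less its block), and the fibrillar collagen gene COL5A2 had 38.4, 32.5 and 54.3 against 3.62, 2.01 and 1.09 (log2 3.76 ± 0.38). AXL, a receptor kinase tied to EMT, had 86.7, 73.6 and 99.2 against 149, 179.99 and 177 (log2 -0.96 ± 0.15), of which -0.20 (adjusted p = 0.215) remained less its block on chromosome 19. Markers of other cell types mostly had no tested promoter region. No endothelial marker of 8 in the annotation, 1 of 10 blood markers (CD14), 2 of 9 melanocyte and Schwann markers and 3 of 9 fibroblast markers had a tested promoter region. Those of COL1A2 (log2 1.61, adjusted p = 0.00496), PDGFRA (1.501, adjusted p = 0.000343) and CD14 (1.25, adjusted p = 0.00628) were higher in SCC25, in the same direction as CDH11 and COL5A2. None of these markers passed the test for more than 2-fold. The remaining tested fibroblast marker, COL1A1, was not called (log2 0.28). The promoter regions of MITF (-0.69) and PMEL (-0.23) were called higher in SCC6, where the median of all genes was -0.34. Less the block neither was called, with -0.14 at MITF (adjusted p = 0.351) and 0.052 at PMEL (adjusted p = 0.609). Under scaling to regions without a peak MITF had -0.060 (adjusted p = 0.696) and PMEL 0.41 (adjusted p = 0.000403). The part of such markers in the mesenchymal list was not tested.

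EGFR, the target of cetuximab, had 132, 110.3 and 111 in SCC25 and 144, 139.8 and 162 in SCC6 (log2 -0.34 ± 0.13, adjusted p = 0.029), the same as the median of all genes, and the sign turned under scaling to regions without a peak (0.30, adjusted p = 0.0304). The call was lost without SCC25 replicate 2 or 3 or SCC6 replicate 3 (adjusted p from 0.0803 to 0.105). Of 12 EGFR family members and ligands, 3 were higher in SCC25 and 6 in SCC6. ERBB2 had 55.4, 42.5 and 44.1 against 123, 104 and 87.0 (log2 -1.12 ± 0.18, and -0.74 less its block). Ligands differed in both directions. EGF had 23.7, 23.1 and 16.97 against 3.62, 8.70 and 4.35 (log2 1.83 ± 0.37), NRG2 had 29.4, 36.8 and 28.0 against 7.25, 8.03 and 11.96 (log2 1.70 ± 0.34), and EREG, the epiregulin gene, had 28.3, 41.8 and 35.6 against 90.6, 83.0 and 70.7 (log2 -1.20 ± 0.20, and -0.78 less its block). Among 30 other receptor kinases and ligands, 8 were higher in SCC25 and 12 in SCC6. FGFR1 had 106, 129 and 78.9 against 16.9, 30.8 and 45.7 (log2 1.80 ± 0.30), and less its block 0.16 (adjusted p = 0.719).

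AP-1 and TEAD/YAP genes stood out by count, with 2 of 32 higher in SCC25 and 23 in SCC6 and a median log2 of -0.69. Less the block of neighbours the median was -0.23, and 3 and 12 were called. For all 12621 genes it was -0.17, with 1435 and 4072 called, so the list was near all genes on this measure. YAP1, the coactivator of the Hippo pathway, had 324, 328 and 327 in SCC25 and 5263, 5317 and 5728 in SCC6 (log2 -4.05 ± 0.05, adjusted p = 1.1e-15), and less its block 0.00 (adjusted p = 0.953). MAFK, a small MAF factor, had 13.9, 7.21 and 14.4 against 105, 95.0 and 87.0 (log2 -2.96 ± 0.28) and kept -2.07 less its block. F3, tissue factor, was the member furthest towards SCC25 with 249.8, 240.1 and 249 against 144, 149 and 152 (log2 0.73 ± 0.10), but -0.20 less its block.

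Patterning genes held some of the widest promoter differences. PAX6, the eye and forebrain factor, had 271, 234 and 236 in SCC25 and 1.21, 1.34 and 1.09 in SCC6, where it had at most 2 reads per library (log2 6.81 ± 0.28, adjusted p = 3.95e-10). TBX18, a mesoderm T-box factor, had 110.04, 119 and 83.1 in SCC25 and was at the floor in SCC6, so it was at least 35.1-fold higher in SCC25. HAND1 had 1.51, 0.721 and 4.24 in SCC25 and 37.5, 20.7 and 39.2 in SCC6 (log2 -3.51 ± 0.40). Of 54 patterning factors of head and pharynx, 16 were higher in each line and the median log2 was -0.03. GATA3 had 26.4, 24.5 and 38.2 against 116, 98.4 and 94.6 (log2 -1.78 ± 0.21), all of it shared with its block on 10p (-0.03 less the block).

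HOX genes, which set position along the body axis, had 3 of 19 higher in SCC25 and 11 in SCC6. Of the 5′ genes of the HOXD cluster, HOXD11 and HOXD13 were higher in SCC25, and HOXD9, HOXD10 and HOXD12 had no tested promoter region. HOXD13 had 75.7, 51.2 and 66.2 against 3.62, 0.669 and 3.26 (log2 4.33 ± 0.43), and HOXD11 had 202, 219.9 and 198.5 against 59.2, 62.2 and 81.6 (log2 1.61 ± 0.15). HOXA7 had 34.7, 39.7 and 47.5 against 119.6, 128 and 145 (log2 -1.67 ± 0.17), and HOXA3 had 20.3, 27.4 and 17.8 against 66.5, 79.0 and 66.3 (log2 -1.66), of which -0.45 and -0.44 remained less their block. The median of the HOX list moved from -0.67 to -0.08 less the block.

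Signalling lists had a median near 0 or near that of all genes and a few wide differences. In the WNT list, 6 of 31 were higher in SCC25 and 12 in SCC6. TCF7, a nuclear effector of WNT signalling, had 213, 168 and 165 against 6.04, 10.7 and 13.1 (log2 4.12 ± 0.26), and DKK3 had 58.0, 41.8 and 58.5 against 3.62, 5.35 and 5.44 (log2 3.21 ± 0.34). In the TGF-beta and BMP list, 9 of 32 were higher in SCC25 and 8 in SCC6. BMP4, a secreted ligand, had 242, 229 and 238 against 3.62, 4.01 and 11.96 (log2 5.15 ± 0.33). SMAD7 was called at a region of 199 bases that belongs to the class of short regions, with 0.754, 1.44 and 0.848 against 39.9, 36.1 and 48.9. IGF1 was likewise read out at a region of 201 bases, with 1.51, 1.44 and 1.70 against 67.7, 51.5 and 58.7. Of 16 NOTCH genes, 5 were higher in SCC25 and 8 in SCC6, with log2 values from -1.05 (NUMBL) to 0.84 (HES2), and neither of these was called less its block (-0.29 and -0.31).

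Interferon and antigen presentation genes had 10 of 28 higher in SCC25 and 7 in SCC6. IRF7, the inducer of interferon-alpha genes, had 105, 85.1 and 109 against 2.42, 4.68 and 1.09 (log2 4.86 ± 0.38), and IFI27 had 61.4, 56.2 and 53.4 against 1.21, 6.69 and 1.09 (log2 4.14 ± 0.47). MX1, an antiviral GTPase, was at the floor in all SCC25 libraries and had 39.9, 38.8 and 39.2 in SCC6, at least 20.2-fold higher, within a run of chromosome 21 described below. CD274, which encodes PD-L1, had 44.8, 54.1 and 55.1 against 87.0, 96.4 and 78.3 (log2 -0.75 ± 0.17). CD274 had -0.43 less its block and lost its call under scaling to regions without a peak (-0.12, adjusted p = 0.546). Of 21 inflammatory cytokine genes, 7 were higher in each line. IL36G had 84.8, 62.0 and 78.9 against 6.04, 3.35 and 7.61 (log2 3.56 ± 0.33), IL6 had 94.6, 94.5 and 83.1 against 19.3, 24.1 and 26.1 (log2 1.93 ± 0.20), and LCN2 had 86.7, 62.0 and 60.2 against 173, 172 and 208 (log2 -1.40 ± 0.16). In the NRF2 and xenobiotic list, 6 of 25 were higher in SCC25 and 11 in SCC6, with GSTM2, a glutathione transferase, at 36.6, 27.4 and 26.3 against 1.21, 2.68 and 1.09 (log2 3.58 ± 0.30). GSTM2 has close paralogs among which reads can be split.

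Cell cycle and tumour suppressor genes had 8 of 45 higher in SCC25 and 25 in SCC6, with a median log2 of -0.50. CDKN2A and CDKN2B, which encode the CDK4/6 inhibitors p16 and p15, were at the floor in all 3 SCC6 libraries at the region read out. For CDKN2A this region lay in the run from chr9:21994285 described below. No tested region outside the short class lay between 21905022 and that point, so a start site of CDKN2A in this gap was not read out. CDKN2A had 80.6, 78.6 and 50.9 in SCC25, at least 23.6-fold higher, and CDKN2B had 143, 144 and 129.8, at least 46.8-fold higher. FAT1 and FHIT were at the floor in SCC25. FAT1, an atypical cadherin, had 45.9, 52.2 and 62.0 in SCC6, at least 27.4-fold higher, and FHIT, at a common fragile site, had 202, 179 and 174, at least 95.0-fold higher. In all, 26 genes had a promoter region at the floor in all 3 SCC25 libraries and 43 in all 3 SCC6 libraries, and 13 and 31 of these had a peak in all 3 lists of the other line. Of 36 cancer-testis genes, which are silent in most adult tissues, 4 had a tested promoter region, and 1 of them, MAEL, was called (log2 0.84, higher in SCC25). Its region is also the promoter region of ILDR2, and less the block it was not called (0.34, adjusted p = 0.179).

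The widest differences towards SCC6 over all genes included zinc finger genes. ZNF736 had 2.64, 3.61 and 2.54 in SCC25 and 409.6, 405 and 452 in SCC6 (log2 -6.76 ± 0.22). Zinc finger genes of chromosome 19 had 3 of 207 higher in SCC25 and 190 in SCC6, with a median log2 of -1.09. Less their block 52 and 54 were called, against 1435 and 4072 of all 12621 genes. The median was then -0.03, so most of the gap was common to their neighbours. ZNF331 and ZNF90 kept theirs. ZNF331 had 5.28, 5.05 and 0.848 against 200.6, 259.6 and 251 (log2 -5.84 ± 0.39, and -4.51 less the block), and ZNF90 had 3.77, 0.721 and 5.09 against 211, 174 and 211 (log2 -5.76 ± 0.39, and -4.60). Ribosomal protein genes, which every cell uses, had 4 of 67 higher in SCC25 and 37 in SCC6 with a median log2 of -0.48, close to all genes. CUBN and LNX1, with 108, 100.4 and 91.4 and with 132, 118 and 124 in SCC6, were read out at regions of 200 and 199 bases, inside the class of short regions, and had at most 4 reads per library in SCC25.

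Neighbouring regions often moved together, and the genome was therefore cut into blocks of 40 tested regions and joined into segments. A segment was called shifted where its median log2 lay at least 0.5 from that of all regions and the libraries of the lines did not overlap. Whether a shifted segment reflects copies of the DNA or its openness cannot be told apart from ATAC-seq reads alone. Of 96 segments, 28 were shifted towards SCC25 (512.6 Mb) and 25 towards SCC6 (416.4 Mb). All 53 had the same direction, without overlap, in the cetuximab libraries, where 25 and 24 also kept a shift of 0.5. Regions with a peak in all libraries of both lines were numerous enough to measure in 26 and 20 of the segments. They kept at least 0.5 of the segment's shift, as a proportion, in 24 and 11 of these, and had its direction in 26 and 15.

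**Figure D4:**
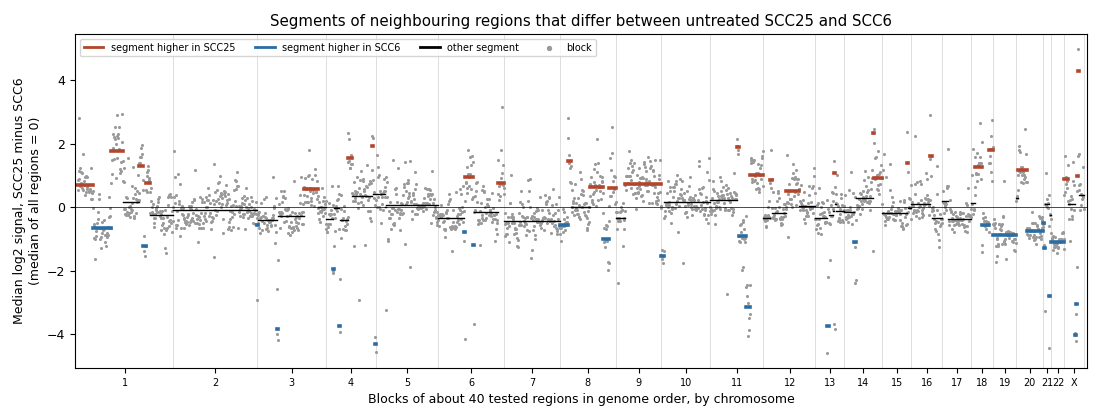
Median log2 signal of SCC25 minus SCC6 in each block of about 40 tested regions (grey points) in genome order, less the median of all regions, with lines for the 96 segments, red where shifted towards SCC25 (28), blue towards SCC6 (25) and black otherwise. The deepest blue segments are on chromosomes 3, 4, 11, 13 and X, and the highest red segment is on chromosome X at 4.29.

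The segments shifted towards SCC6 depended on the class of short regions. Without it, all 28 SCC25 segments kept a shift of at least 0.5, but 12 of the 25 SCC6 segments did. The segment at chr3:74750543-84776882 went from -3.83 to -0.47, that at chr4:60770109-66536595 from -3.75 to 0.51, that at chr13:54045777-64808749 from -3.74 to -0.22, and that at chrX:73834314-93656174 from -4.01 to 0.16. In these 4, 46.7% to 51.7% of tested regions belonged to the class. Segments found anew without the class were 33 towards SCC25 (704.2 Mb) and 15 towards SCC6 (392.8 Mb).

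**Figure D5:**
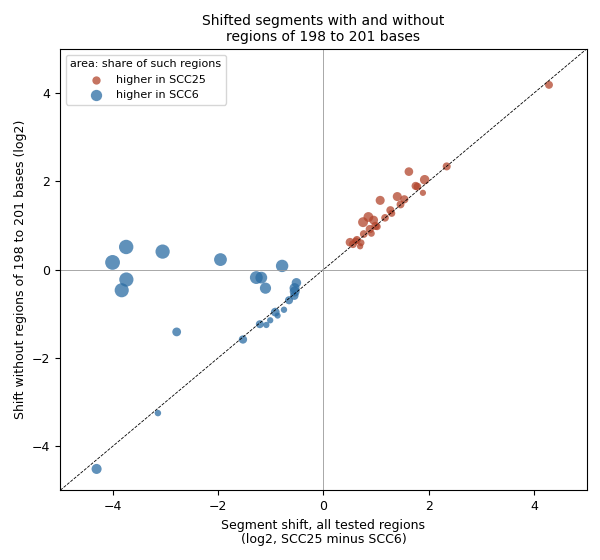
Shift of each of the 53 shifted segments in log2 with all tested regions (x axis) and without regions of 198 to 201 bases (y axis), red towards SCC25 and blue towards SCC6, with the point area growing with the share of such regions and a dashed line at equality. The SCC25 segments lie along the line, whereas 10 SCC6 segments with large shares move to between -0.47 and 0.51.

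Other SCC6 segments kept their shift. The segment at chr11:99208193-104063627 holds YAP1, BIRC2 and BIRC3, the latter inhibitors of apoptosis, and had a shift of -3.14 with all regions and -3.25 without the class. Regions with a peak in every library of both lines had -2.36 there, regions without any peak -2.46 and promoters -2.86. All 21 tested regions in or within 10 kb of YAP1 were higher in SCC6, as were 30 of 32 at TRPC6, 34 of 37 at ARHGAP42 and 39 of 48 at CNTN5 in the same segment or at its edge. These genes were picked for the most called regions, with at least 80% of tested regions called in that direction. Such counts follow from the pick, and 35.1% of all tested regions were higher in SCC6. Less the block, the median log2 was -0.0033 at YAP1, 0.21 at TRPC6, 0.038 at ARHGAP42 and -0.12 at CNTN5. The segment with MYC (chr8:124194510-131919239) had -1.01, chromosome 22 -1.08, chromosome 19 -0.87 and the start of chromosome 10p (chr10:285166-10212537) -1.53. Chromosomes 19 and 22 are rich in GC. With a trend on GC content taken out, their medians were -0.76 and -1.05, against -0.86 and -1.08 before.

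Towards SCC25, the segment at chr11:68899069-73748623 with CCND1, FADD, CTTN and ANO1 had a shift of 1.89, with 1.76 at shared peaks and 1.93 at promoters. The long arm of chromosome 11 thus carried opposite shifts at CCND1 and at YAP1. The promoter of CCND1 had no tested region of its own. A segment with FGFR1 (chr8:34940525-42397328) had 1.47. The segment at chr1:87246621-109371438 had 1.75, and it holds VAV3, an activator of small GTPases, at which 27 of 32 regions were higher in SCC25, and BCAR3 with 23 of 28. The distal region D2 lies in the same segment. RABGAP1L on chromosome 1 (25 of 30) and FHOD3 on chromosome 18 (25 of 27) lay in other SCC25 segments, and HIVEP3 on chromosome 1 had 36 of 43 regions higher in SCC6. All of these genes were picked by the same rule of at least 80%, so their counts follow from it. Less the block, the median log2 was -0.36 at VAV3, -0.046 at BCAR3, 0.33 at RABGAP1L, 0.38 at FHOD3 and -0.23 at HIVEP3. A large part of chromosome 9 (chr9:38500116-141045133, with NOTCH1) had 0.72 and chr3:153758138-183873295, with SOX2 and PIK3CA, had 0.56. Segments on chromosomes 14 (chr14:85435818-88715228, 2.34) and 4 (chr4:177702202-181912647, 1.92) held 3 and 2 coding genes, and one on chromosome 18 (chr18:64678205-78016334, 1.79) held 36. Regions without any peak were shifted far less in several of these segments than in that of YAP1. Their shift was 0.35 in the segment with VAV3, 0.11 on chromosome 18 with overlapping libraries, -0.40 with MYC, -0.34 on chromosome 22 and -0.51 on 10p. Among the 18 SCC25 and 19 SCC6 segments in which it could be measured, 14 and 17 had the direction of the whole segment.

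Runs of at least 5 consecutive tested regions with at most 1 read in every library of a line, with the short class left out, were searched after the segments had been seen, and 4 were found. SCC25 was at the floor in 47 regions of chr4:186703691-190098667 (3.40 Mb), where SCC6 had a mean signal of 52.3 and SCC1 49.7. It holds FAT1, TLR3, SORBS2 and ZFP42. ZFP42 had 100.3, 89.7 and 123 in SCC6, at least 53.6-fold higher. SCC25 was also at the floor in 31 regions of chr21:41879930-43648472 (1.77 Mb), where SCC6 had 51.2, which hold MX1, MX2, TMPRSS2, BACE2 and RIPK4.

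SCC6 was at the floor in 7 regions of chr9:21994285-22052959 (0.0587 Mb) with CDKN2A and CDKN2B, where SCC25 had 52.3 and SCC1 97.0. It was also at the floor in 58 regions of chrX:104568693-107979061 (3.41 Mb), where SCC25 had 71.1. The latter run holds 26 coding genes, PRPS1, PSMD10, COL4A5 and ATG4A among them. PRPS1, a nucleotide synthesis enzyme, had 149, 110.3 and 118 in SCC25, at least 42.4-fold higher, and the autophagy protease ATG4A had 211, 186 and 177, at least 64.6-fold higher. The region of ATG4A is also the promoter region of PSMD10. In the cetuximab libraries the same line was at or near its floor in each run, with a mean signal of 1.28 in SCC25 and of 0.756 and 0.760 in SCC6.

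The short class behaved unlike its surroundings inside these stretches. In the run on chromosome X, where 2 of 71 regions of other widths were above the floor in all 3 SCC6 libraries, 17 of 23 regions of the class were, with median signals of 21.7, 16.1 and 18.5. Over the whole table the class had medians of 21.7, 20.1 and 20.7 in SCC6. In the segment with YAP1, where regions of other widths had medians of 109.95, 104 and 114 in SCC6 and 17.3, 16.6 and 16.97 in SCC25, the class had 36.2, 36.8 and 35.9 in SCC6. The class was thus present in SCC6 where its neighbours had no signal, and it was raised less than its neighbours where they were high.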

How the data were processed

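Chromatin accessibility of SCC25 and SCC6 cells given PBS was measured by ATAC-seq with 3 libraries per line. Per the labels and the study's methods, the authors trimmed reads with Trim Galore 0.5.0, aligned them with Bowtie2 2.3.2 to hg19 (GRCh37), filtered them with Picard 2.18 and SAMtools 1.9, and called broad peaks per library with MACS2. Cut-offs of MACS2 and the tool settings behind the region table are not given in the sources used here. The deposited region table holds a scaled signal, in which each value is a read number (at least 1) multiplied by a constant of its library (100% of values whole within a tolerance of 0.001 once divided by it). The deposited peak lists give a fold enrichment (a ratio) and −log10 p- and q-values per peak, as the authors' caller wrote them. Total reads per library are not given in the sources used here, and intervals from reads would cover counting error only.

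limma 3.58.1 (trend, robust, two-sided, R 4.3.3) was fitted to log2(signal + 1) of the 6 libraries. Regions in the lowest 25% by mean signal (a cut at 11.8, 28772 regions) were left out, and p-values were adjusted over all tested regions at 0.05. The plan allowed for counts. Since the unit was signal, limma stayed the test, and edgeR 4.0.16 and DESeq2 1.42.0 were run on recovered reads as alternatives. The interaction of line and treatment used the 12 libraries of both lines. The main limma fit and limma treat were tested on simulated reads, in which far fewer regions were changed than were called in the data. The segmentation was tested on shuffled differences with planted shifts. The other fits were not tested in this way. Replicate numbers did not pair the lines (r of deviations -0.0093, -0.010 and -0.0044). Replicates differed by more than counting noise (chi-square per degree of freedom 1.90 to 2.13), so none was counted as a duplicate.

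Genes came from GENCODE 44 mapped to GRCh37 (78703 start sites of 19821 protein-coding genes). The gene lists, members and naming rules were chosen with earlier results of these data known. Named were 8 fixed lineage genes, up to 2 members per list and direction with the largest difference, the 5 largest promoters, 3 distal regions, 5 loci and 5 segments per direction. Loci were genes with the most called regions, where at least 80% of tested regions were called in that direction. A gene that this rule also named is not reported here. Segments joined blocks of 40 regions by least-squares change points (penalty factor 3). At least N-fold is the mean of the higher line over 3 reads per library of the line at the floor. Motifs were searched in 200 bases around the centre, on both strands. Alternatives were other scalings, pseudocounts of 5 and 0.5, no filter, thinned reads, a GC trend, block centring, array weights, a replicate block, a 3 kb promoter window, an adjusted p under 0.01 and leaving out each library. The class of 198 to 201 bases, the fit without it, the floor runs and the regions P1, T1, F1 and F2 were chosen after seeing the data.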

Additional observations from a re-analysis of the deposited data

Results flagged for a closer look

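The difference between the lines depended on treatment, by limma's interaction term over 12 libraries, in 9 of the 104 named regions. The share over all regions tested for it was 9.35%, so the named regions did not stand out by count. Most named regions were picked for wide or clear untreated differences, and the same untreated values enter the interaction. A smaller gap after cetuximab is therefore partly built into the pick. The values below are the untreated difference less the difference in the cetuximab libraries (log2). TP73 had 2.68 (adjusted p = 9.41e-07), since its line difference was 4.36 in untreated cells and 1.68 after cetuximab. The distal region D1 had 2.29 (adjusted p = 6.38e-11), with 3.51 before and 1.22 after, and the SCC6 signal there went from 74.9, 75.6 and 82.7 to 306, 321 and 312. D3 had 0.96 (adjusted p = 2.16e-05), with 2.98 and 2.02.

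The other 6 regions were higher in SCC6 and had a smaller gap after cetuximab. The value was -1.74 at CRB3 (adjusted p = 0.0357), -1.21 at CLDN7 (adjusted p = 0.0336), -1.003 at KRT15 (adjusted p = 0.0313) and -0.94 at ZNRF3 (adjusted p = 0.0181). It was -1.76 at ZNF331 (adjusted p = 0.0225) and -2.44 at ZFP42 (adjusted p = 0.00644). ZFP42 was at the floor in SCC25 under both treatments, so its value depends in part on where the floor of each library lies. In the run on chromosome 4 that holds it, the mean SCC25 signal was 0.649 in the PBS and 1.28 in the cetuximab libraries.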

How the results depend on the processing

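Counts held within 1.5 times of the reported ones except as follows. Requiring more than 2-fold gave 18528 and 15537 regions and 970 and 901 promoter regions (SCC25, SCC6). Scaling on reads outside peaks gave 19192 regions higher in SCC6 and 6767 and 1988 promoter regions. Segments towards SCC6 numbered 42 with blocks of 20 regions, 16 with blocks of 80, 14 with promoter regions only and 15 without regions of 198 to 201 bases. The cause was not tested, other than that smaller blocks make more segments. Leaving out 1 library gave 28951 to 31538 and 28530 to 29697 regions, 2351 to 2729 and 5684 to 6083 promoter regions, 5846 to 7749 regions by interaction, 27 to 28 and 22 to 24 segments, and a difference in peak number of -2552 to 13882. The replicate block gave 31578 and 30004 regions, 2751 and 6246 promoter regions and 8030 by interaction, and changed no call of the 104 named regions.

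Of 2387 pairs of a named region and an alternative, 2258 kept direction and call, 105 lost the call and 23 changed sign. Less the block, the value was -0.10 at SOX2, -0.040 at FOXA2, -0.20 at F3, 0.0033 at YAP1, -0.31 at HES2, 0.074 at MAML2, 0.025 at ZNRF3, 0.014 at IL11, -0.51 at GCLM, 0.052 at PMEL, -1.44 at RPL5, 0.019 at RPS28, -0.17 at ZNF536 and 0.12 at D4. With that scaling it was 0.21 at CDH1, 0.60 at VIM, 0.30 at EGFR and 0.41 at PMEL. VIM had 0.063 by cyclic loess, 0.15 with the GC trend removed and 0.13 without SCC6 PBS replicate 1, and PMEL 0.13 by cyclic loess and 0.055 by quantile normalization. Depth limits regions with few reads, since a library at the floor may hold 0 or 1 read.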

Other observations

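The PBS libraries of SCC1, replicates 1 and 3, place the differences beside another HNSCC line, as levels without a test. SCC1 was close to SCC25 at TP73 (137 and 149), OVOL1 (74.2 and 79.3), KRT14 (35.1 and 42.4), DSG3 (36.4 and 49.1), IFI27 (58.5 and 59.2) and IRF7 (83.3 and 108). It was close to SCC6 at ELF3 (157 and 164), IVL (63.8 and 83.7) and EREG (75.5 and 83.7). PAX6 was at 13.01 and 7.82 in SCC1, BMP4 at 24.7 and 14.5, TCF7 at 26.0 and 13.4 and CDH11 at 3.90 and 10.1, all far below SCC25. ZNF331 was at 1.3 and 17.9 and ZNF90 at 5.20 and 4.47, both far below SCC6. TBX18 was at 397 and 404, above SCC25, and HOXD13 was at 130.1 and 114.

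At promoters, the letters of the ETS motif (CCGGAAGT) were in 0.825% of regions more than 2-fold higher in SCC25, in 5.11% of those higher in SCC6 and in 4.02% of all tested promoter regions. The AP-1 letters (TGANTCA) were in 18.8%, 7.10% and 7.61%. By chromosome, the share of tested regions higher in SCC6 was 70.7% on chromosome 22 and 68.6% on chromosome 19, and the share higher in SCC25 was 50.4% on chromosome 9 and 49.9% on chromosome 18.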
